A study of Mus musculus with 29 samples.

Results

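The genes for the proteins of the cytosolic ribosome were followed across sorted bipolar cells and photoreceptors of the adult mouse retina. They were taken by name from the RNA-seq gene table, as the symbols that begin with Rps or Rpl and go on with a number (Rpsa and Rplp0 to Rplp2 included, and the S6 kinases named Rps6k left out). This gave 84 of the 24062 genes listed, of which 33 carried a small-subunit name and 51 a large-subunit name. Expression was measured in 15 RNA-seq libraries, with 3 from each of 5 sorted populations. All bipolar cells (pan-BC) came from Otx2-GFP+/- mice at postnatal day 44 or 47. ON bipolar cells (ON-BC) and OFF bipolar cells (OFF-BC) came from Otx2-GFP+/- mice that were also Grm6-YFP+/+, at postnatal day 42, 43 or 48, and OFF-BC were sorted again after the first sort. Rods from Nrl-eGFP mice and photoreceptors from Nrl-eGFP;NrlKO mice, which stand in for blue cones, were earlier data at postnatal day 56. Sorting relied on reporter brightness: the Otx2 knock-in leaves 1 GFP allele that is bright in bipolar cells and weak in photoreceptors, and the YFP is driven by the Grm6 promoter of ON bipolar cells. Chromatin accessibility came from 12 ATAC-seq libraries, 2 per population with green cones (Opn1mw-GFP) as a sixth, in which, by the labels, pan-BC, ON-BC and OFF-BC all came from mice with both reporters. In ATAC-seq, pan-BC were taken at postnatal day 43 or 44, ON-BC and OFF-BC at 42 or 46 and the photoreceptors at 56, and OFF-BC again went through a second sort. The peak lists also hold 2 further green cone libraries that were sorted again.

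A ribosome joins a small subunit, which reads the messenger RNA, and a large subunit, which forms the peptide bond and carries the stalk that recruits elongation factors. Nearly every ribosomal protein is needed in 1 copy per ribosome, and the messenger RNAs of this family are known for short transcripts and for a terminal oligopyrimidine (TOP) tract, a C followed by a run of C and T at the 5′ end, through which the mTOR pathway sets their translation. Ribosomal protein genes have also left many processed pseudogenes in mammalian genomes, so that short reads from them can fit more than 1 place.

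The RNA-seq libraries held 12329548 to 26266746 counted reads. Values are given as normalized counts, the counts of a library divided by 1 size factor. Nrl, the rod transcription factor that is knocked out in the blue cone model, was at 11480, 16600 and 14470 normalized counts in rods and at 657, 764 and 486 in blue cones. Summed over 8 rod markers, pan-BC libraries held 40890 to 49240 normalized counts and rods 1858000 to 2564000, and 8 bipolar markers summed to 139700 to 151800 in pan-BC libraries, while rods had 8254 to 9236 and blue cones 32520 to 37690. No rod or bipolar marker was at 0 in a whole population, and the part of other cell types in the differences below was not tested. Class, study and age changed together between bipolar cells and photoreceptors and cannot be told apart. In such bulk samples, a smaller number of cells of a type and less RNA per cell cannot be told apart either. The p-values measure the spread between replicate libraries within populations, pooled over all populations of an assay. There are 3 such libraries per population in RNA-seq and 2 in ATAC-seq.

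The start of the transcript is shown first because it is the feature that the family is known for. Of the 84 genes, 63 had an entry in the RefSeq promoter table of GRCm38.p6, each with 250 bases before and 50 after the annotated start. Where a gene had several annotated starts, the most upstream was taken. Having a tract or not is thus read from this annotated base, which can differ from the start used in these cells. The windows below, 5′ to 3′ on the gene's strand, hold 20 bases before the start and 10 from it. Capitals mark the C at the annotated start and the C or T bases that follow it without a break. The genes were picked after the expression values were seen, to show genes with and without a tract that rose, fell or did neither. The first 5 have a tract of at least 5 bases. Of these, Rps21, Rplp2 and Rpl15 were higher in pan-BC by more than 2-fold than in both photoreceptor types, Rpl38 than in blue cones, and Rps6 in neither comparison. Rpl35a was higher in pan-BC than in both with a C but no tract. Rpl10a and Rps3a1, which were lower in pan-BC than in rods, have no tract at the annotated start either. Rpl10a does meet the looser rule given in the next paragraph.
Rps21, chr2:180257359-180257388 (+): gcacttaccgaggacccgccCTCCTgccca
Rplp2, chr7:141447631-141447660 (+): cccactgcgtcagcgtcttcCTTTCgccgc
Rpl15, chr14:18270977-18271006 (-): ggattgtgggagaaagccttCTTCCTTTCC
Rpl38, chr11:114668560-114668589 (+): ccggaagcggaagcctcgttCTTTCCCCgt
Rps6, chr4:86857358-86857387 (-): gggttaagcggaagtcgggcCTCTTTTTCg
Rpl35a, chr16:33056433-33056462 (+): gaggggcggggcgtgcgtccCacaaggccg
Rpl10a, chr17:28328451-28328480 (+): gcgtggtggcgcccccccagCggccgcaaa
Rps3a1, chr3:86142659-86142688 (-): gattcttaaagccggaagggCgaaagagca

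A start with C and at least 4 further C or T bases was found in 12 of the 63 genes (19.0%), against 2.28% of 10373 other genes tested in RNA-seq and 2.48% of 27025 promoters in all. These 12 were Rpl14, Rpl15, Rpl28, Rpl35, Rpl38, Rplp2, Rps10, Rps15a, Rps18, Rps21, Rps27 and Rps6. With a looser rule, a C and at least 6 C or T bases anywhere within 20 bases of the start, the shares were 52.4%, 19.0% and 19.0%. The letters CCGGAAG, a core bound by ETS factors, stood on either strand of the 300 bases in 39.7% of the ribosomal protein genes, 17.1% of the other genes tested and 9.14% of all promoters. AAGATGG, a YY1 core, was in 15.9%, 6.94% and 6.46%, also searched on both strands. By contrast GGGCGG, an SP core searched on both strands, was in 60.3%, 63.2% and 35.9%, and TATAAA on the gene's strand from 40 to 20 bases before the start was in 1.59% (Rpl22l1 alone), 1.11% and 2.08%. The first 2 of these motifs can overlap by the letters AAG, and a match says only that the letters are in the window. The 12 genes with the strict tract had a median log2 fold change of 1.71 between pan-BC and rods, and the 47 tested without it 1.04 (1.85 and 1.73 between pan-BC and blue cones). Past 2-fold, 6 of the 12 were higher than in rods and 10 than in blue cones. Of the 47 without the tract 16 and 24 were, and of all genes tested 27.8% and 22.7%. These counts are given as a description without a test.

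Levels within the family spanned a wide range, although ribosomes hold most of these proteins in equal numbers. After the filter on low counts, 80 genes were tested (33 small-subunit and 47 large-subunit names). Rpl26 had no read in any library, and Rpl10l, Rpl39l and Rpl3l, copies of Rpl10, Rpl39 and Rpl3 known from testis or muscle, had at most 16 reads in a library. Per kb of spliced transcript and over the 15 libraries, Rps14 had the highest level at 10460 normalized counts per kb, followed by Rpl4 at 8688, Rpl8 at 8618 and Rps9 at 6625. Among the lowest were Rpl11 at 16.2 per kb, Rps23 at 26.1, Rpl5 at 27.8 and Rpsa at 33.1.

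Reads that fit several places bear on these levels. For each gene, the share of 50-base windows of its longest curated RefSeq transcript that occur again elsewhere on the 21 chromosomes was computed. Its median was 60.4% over the 84 genes (range 0.661 to 100%) and 0.996% over the 13944 tested genes with a transcript. The family had 51 genes with over 50% of windows repeated, a share that 2.65% of tested genes reached, and 15 with over 90%. Of the 31 genes below 100 normalized counts on average, the untested ones included, 21 had over 50% of their windows repeated, and of the 22 above 1000 counts, 6 did. Across the 80 genes the mean level and the repeated share went in opposite directions (Spearman's rho -0.56, and -0.43 for the level per kb), as a description across genes that share libraries. The 10 most counted genes took 62.5% of all reads of the family. The effect of reads with several matches on the counts was not tested.

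The family took a larger share of reads in every bipolar library than in any photoreceptor library. The share of counted reads was 0.850, 0.896 and 0.774% in pan-BC, 0.744, 0.743 and 0.754% in ON-BC, and 1.04, 0.919 and 1.11% in OFF-BC. It was 0.225, 0.260 and 0.219% in rods and 0.183, 0.207 and 0.250% in blue cones. Rods and blue cones overlapped, with means of 0.235% ± 0.022 and 0.213% ± 0.034 (SD, n = 3 each), while pan-BC (0.84% ± 0.061) lay 3.58-fold above rods and 3.93-fold above blue cones. The 3 OFF-BC libraries (1.02% ± 0.095) all lay above the 3 ON-BC libraries (0.747% ± 0.0056), by 1.37-fold. A few genes take many reads in photoreceptors, and without the 10 most abundant genes of each library pan-BC had 0.925%, ON-BC 0.815%, OFF-BC 1.11%, rods 0.30% and blue cones 0.25%, in the same order.

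**Figure D1:**
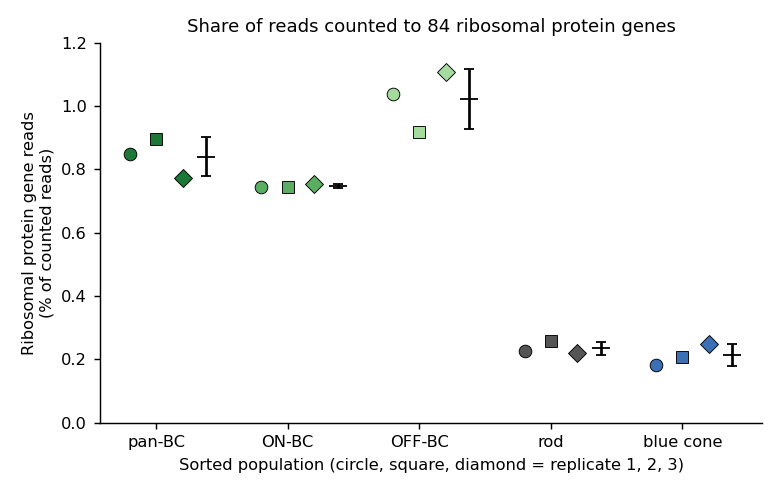
Share of counted reads that fell on the 84 ribosomal protein genes (vertical axis, percent) in each of the 15 RNA-seq libraries, by sorted population. Symbols are replicates, and the bar beside each group is the mean ± SD of 3 libraries. The 9 bipolar libraries lie between 0.743 and 1.11% and the 6 photoreceptor libraries between 0.183 and 0.260%.

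Between all bipolar cells and rods, the question was how the 2 classes that are sisters in the retina differ. Ribosomal protein genes were mostly higher in pan-BC: 31 of 80 were higher and 3 lower by more than 2-fold (limma's test against a 2-fold change, Benjamini-Hochberg adjusted p below 0.05 over 14024 genes), against 27.8% of all genes tested higher and 15.8% lower. In the test against no change, 56 were higher and 7 lower, where 44.2% and 35.4% of all genes were called. The median log2 fold change of the family was 1.25, beside 0.21 over all genes, and 67 of 80 values were above 0. Small-subunit genes gave 12 higher and 1 lower of 33 (median 1.06), and large-subunit genes gave 19 and 2 of 47 (median 1.35). All log2 fold changes are on the scale of the normalized count plus 1, which understates the changes of genes with few reads.

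The genes with the largest differences to rods included both acidic proteins of the stalk. Rplp2 was at 3361, 3462 and 2820 normalized counts in pan-BC and at 435, 604 and 476 in rods. Rplp1, its partner in the stalk, was at 4314, 4550 and 3812 in pan-BC and at 585, 945 and 614 in rods. The groups lay far apart for both genes, with log2 fold changes of 2.68 (SE 0.17, limma adjusted p = 6.97e-08) and 2.59 (SE 0.19, 9.77e-07). Rplp0, the base on which these dimers sit, was at 1477, 1440 and 1133 in pan-BC and at 907, 1200 and 987 in rods. These groups overlapped, and Rplp0 did not pass the 2-fold test (log2 fold change 0.39, SE 0.16). It was at 2664, 2638 and 3467 in ON-BC and at 4406, 3240 and 4356 in OFF-BC, with all 3 pan-BC libraries below the other bipolar libraries, and no test between them was made.

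Rps21, a small-subunit protein, was at 2021, 2165 and 1856 normalized counts in pan-BC and at 285, 379 and 318 in rods, with no overlap (log2 fold change 2.62, SE 0.15, adjusted p = 4.48e-08). The large-subunit genes Rpl18, Rpl35a and Rpl15 made up the rest of the 6 largest increases. Rpl18 was at 550, 632 and 560 in pan-BC and at 75.7, 99.4 and 90.8 in rods (log2 fold change 2.71, SE 0.19, adjusted p = 3.01e-07). Rpl35a (2.7, SE 0.2) and Rpl15 (2.64, SE 0.18) differed by about as much, each with 3 of 3 pan-BC libraries above all rod libraries. Among the most expressed genes the difference was not uniform. Rps14 (log2 fold change 2.21), Rps9 (2.05) and Rpl8 (1.58) passed the 2-fold test, while Rpl4, an exit-tunnel protein with 14846, 14441 and 13182 counts in pan-BC and 8112, 11568 and 8433 in rods, did not (0.61, SE 0.15).

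**Figure D2:**
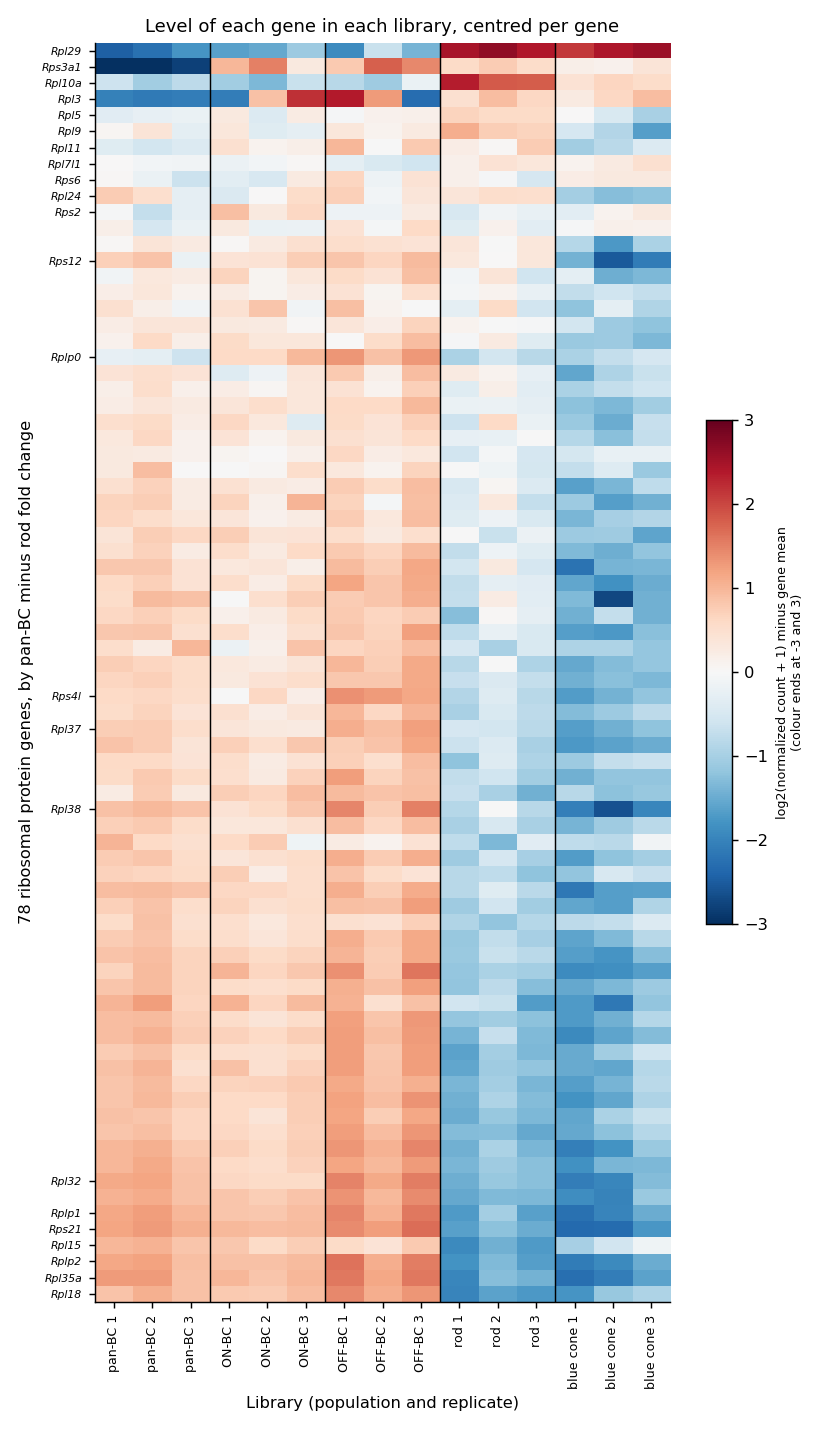
Level of 78 of the tested ribosomal protein genes (rows, 23 of them labelled, ordered by the pan-BC minus rod difference) in the 15 libraries (columns), as log2 of the normalized count plus 1 minus the mean of the gene, with red above and blue below that mean and colours ending at -3 and 3. Most rows are above their mean in the 9 bipolar libraries and below it in rods and blue cones. Among the top rows, Rpl29 and Rpl10a run the other way, and Rps3a1 is below its mean in the pan-BC libraries alone.

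Against blue cones, which share the pan-BC libraries with the comparison above, more genes passed. Here 48 of 80 were higher in pan-BC and 2 lower by more than 2-fold (22.7% and 13.7% of all genes tested), and 68 were higher and 5 lower in the test against no change (42.0% and 34.3% of all genes). The median was 1.81, beside 0.16 over all genes. Small-subunit genes gave 24 higher and 1 lower of 33, with a median of 1.98, and large-subunit genes 24 and 1 of 47, with a median of 1.6. Rps21 was at 177, 178 and 265 normalized counts in blue cones, below all pan-BC libraries by a log2 fold change of 3.30 (SE 0.15, limma adjusted p = 1.23e-09). Rpl38, a small protein of the large subunit, was at 137, 147 and 136 in pan-BC, at 17.3, 11.4 and 18.5 in blue cones and at 40.8, 73.8 and 41.1 in rods. It passed the 2-fold test against blue cones (3.10, SE 0.29, adjusted p = 6.47e-06) and not against rods (1.47, SE 0.29, adjusted p = 0.131). Other markers moved with this comparison and the one with rods. Summed microglial markers were at 45.7 to 48.9 normalized counts in pan-BC and 634 to 1389 in blue cones, with all 7 tested lower in pan-BC past 2-fold and none at 0. Summed cone markers were at 44750 to 71000 in pan-BC, with 1502000 to 1726000 for blue cones and 10850 to 10970 for rods. The sum of 12 stress and immediate early genes was 5310 to 8215 in pan-BC, below rods (9001 to 10710) and blue cones (10730 to 13500), and the part of these lists in the differences was not tested. The other large increases of ribosomal protein genes against blue cones were those of Rpl35a (3.12), Rplp1 (3.04), Rplp2 (2.92) and Rpl32 (2.84).

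A few ribosomal protein genes were lower in pan-BC than in photoreceptors. Rpl29 (chr9:106428889-106431568 on GRCm38, plus strand), a basic protein on the surface of the large subunit, was at 4.25, 5.04 and 7.34 normalized counts in pan-BC, 8.25, 8.82 and 12.3 in ON-BC and 6.71, 16.8 and 9.93 in OFF-BC. It was at 157, 180 and 149 in rods and at 123, 152 and 169 in blue cones. All 9 bipolar libraries lay below all 6 photoreceptor libraries, and the mean was 29.2-fold higher in rods and 26.7-fold higher in blue cones than in pan-BC (log2 fold changes -4.66 and -4.52, SE 0.34 each, limma adjusted p = 3.78e-08 and 1.12e-07). Its pan-BC libraries held 4 to 6 reads each, and 48.5% of its windows were repeated.

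Rps3a1 (chr3:86137940-86142668, minus strand), a small-subunit protein that lies near the messenger RNA exit, was low in pan-BC but not in ON-BC or OFF-BC. It was at 25.5, 31.3 and 40.4 normalized counts in pan-BC, 576, 823 and 353 in ON-BC and 501, 1006 and 786 in OFF-BC. Rods had 432, 490 and 425 and blue cones 326, 317 and 379. The 3 pan-BC libraries lay below the other 12, with log2 fold changes of -3.77 (SE 0.27, limma adjusted p = 7.55e-08) against rods and -3.38 (SE 0.27, 8.38e-07) against blue cones. Pan-BC were sorted as all bipolar cells, ON and OFF types included, yet the ON-BC and OFF-BC sorts did not show this low level. Pan-BC differed from ON-BC and OFF-BC in lacking the Grm6-YFP transgene, in postnatal day and in the sort. These cannot be told apart, and no test between the populations was made. Of the windows of Rps3a1, 81.9% were repeated.

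Rpl10a (chr17:28328471-28331033, plus strand), a protein of the mobile L1 stalk near the exit site for transfer RNA, was at 69.1, 51.5 and 61.2 normalized counts in pan-BC, 51.6, 41.2 and 66.7 in ON-BC and 59.2, 50.5 and 92.7 in OFF-BC. It was at 554, 387 and 379 in rods and 144, 167 and 157 in blue cones, so that the 3 classes of libraries did not overlap. It passed the 2-fold test against rods (log2 fold change -2.83, SE 0.26, limma adjusted p = 5.23e-06) and not against blue cones (-1.36, SE 0.26, adjusted p = 0.218). Rpl3, a protein at the peptidyl transferase centre, had the largest SE of the 80 genes (0.95). It was at 80.8, 76.7 and 78.3 in pan-BC, 79.5, 617 and 1535 in ON-BC and 1761, 818 and 68.4 in OFF-BC, with 467, 638 and 517 in rods and 405, 512 and 638 in blue cones. ON-BC replicate 1 and OFF-BC replicate 3 stood near the pan-BC level and the other 4 sorted ON-BC and OFF-BC libraries above it, and the 2-fold tests were not passed (adjusted p = 0.0919 against rods and 0.121 against blue cones). The SE of Rpl3 comes from all 15 libraries together, so the spread within ON-BC and OFF-BC enters both tests. Of the windows of Rpl3, 91.2% were repeated.

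**Figure D3:**
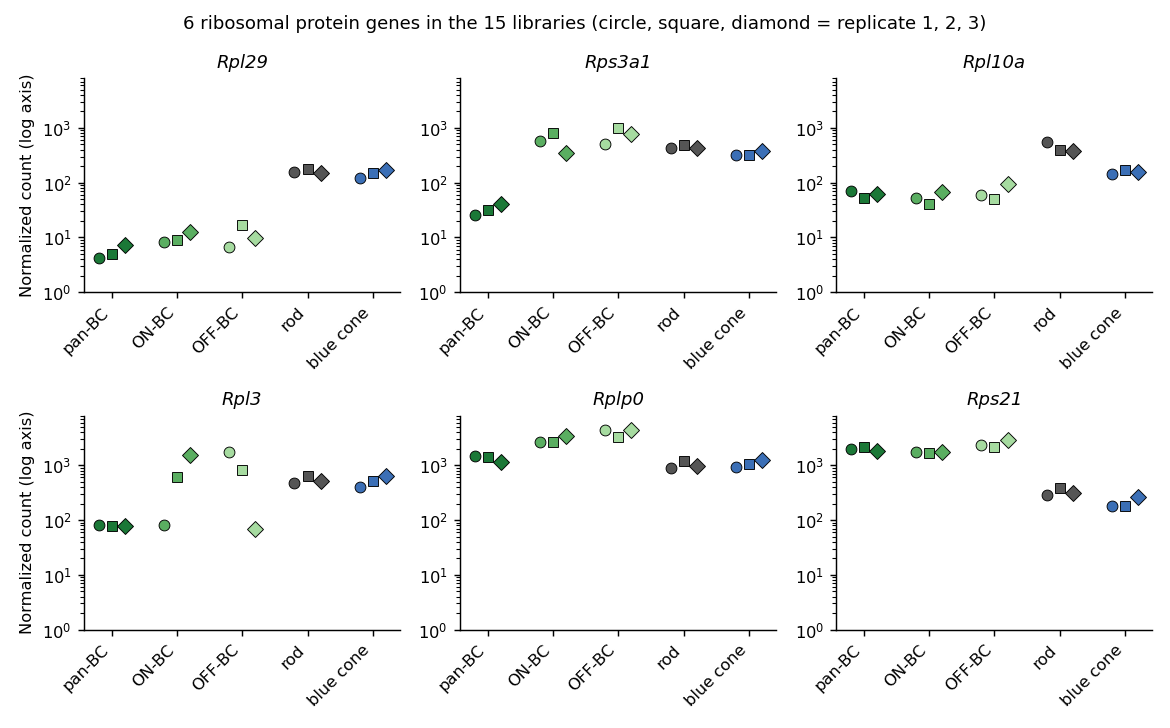
Normalized counts of 6 ribosomal protein genes (log axis) in the 15 libraries by population, with circle, square and diamond for replicates 1, 2 and 3. Rpl29 and Rpl10a are low in all 9 bipolar libraries, Rps3a1 in the 3 pan-BC libraries, and Rpl3 in 5 of 9 bipolar libraries, while Rps21 shows the opposite pattern and Rplp0 is highest in ON-BC and OFF-BC.

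Genes with few and with many repeated windows were counted apart. Of the 30 tested genes with under 50% of windows repeated, 16 were higher and 1 lower in pan-BC than in rods (median 1.58), and of the 50 above it 15 and 2 (median 1.10). Against blue cones the counts were 18 and 1 of 30 and 30 and 1 of 50, with medians of 1.87 and 1.81. Of the 53 genes with over 100 normalized counts on average, 30 were higher and 2 lower than in rods and 41 and 1 than in blue cones. By the same 2-fold test, 27.8% of all genes were higher and 15.8% lower than in rods, and 22.7% and 13.7% than in blue cones.

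Transcript length moved with the difference between classes over all genes, and ribosomal protein transcripts are short (median 740 bases, against 3010 for the tested genes). Between pan-BC and rods, other genes with transcripts up to 700 bases had a median log2 fold change of 1.09 (173 of 421 higher and 36 lower past 2-fold), those up to 1000 bases 1.23, up to 1500 bases 0.74, up to 2500 bases 0.27 and the longer ones -0.06. The ribosomal protein genes had 1.47 up to 700 bases (16 of 37 higher, 0 lower), 1.28 from there to 1000 bases (8 of 21 higher, 2 lower) and 0.44 above (7 of 22 higher, 1 lower). In the comparison with blue cones the medians of other genes over the same lengths were 1.40, 0.93, 0.57, 0.01 and -0.00, and those of the ribosomal protein genes 2.1, 1.8 and 1.31. Up to 1000 bases the family's medians thus lay close to those of other short genes in the difference to rods and above them in the difference to blue cones, as a description. The part of transcript length in the difference was not tested.

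Other gene families give a second comparison, not all matched in length. Median transcript lengths were 747 bases for oxidative phosphorylation, 1070 for mitochondrial ribosomal proteins and 1390 for proteasome subunits, against 740 for the 84 ribosomal protein genes. Of 76 subunits of oxidative phosphorylation encoded in the nucleus, 50 were higher in pan-BC than in rods (median 1.67), and 47 were higher and 2 lower than in blue cones (1.56). Of 77 mitochondrial ribosomal proteins, 14 were higher than in rods (0.72) and 10 higher than in blue cones (0.63). Proteasome subunits, with 38 tested, gave 5 higher and 1 lower (0.54), and 3 and 1 (0.41). These counts are past 2-fold, where 27.8% of all genes tested were higher than in rods and 22.7% than in blue cones. The lower shares of all genes were 15.8% and 13.7%. The higher shares of mitochondrial ribosomal proteins (18.2% and 13.0%) and proteasome subunits (13.2% and 7.89%) thus lay below those of all genes. The cytosolic ribosome thus stood below oxidative phosphorylation in the difference to rods and above it in the difference to blue cones, with medians given as a description.

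**Figure D4:**
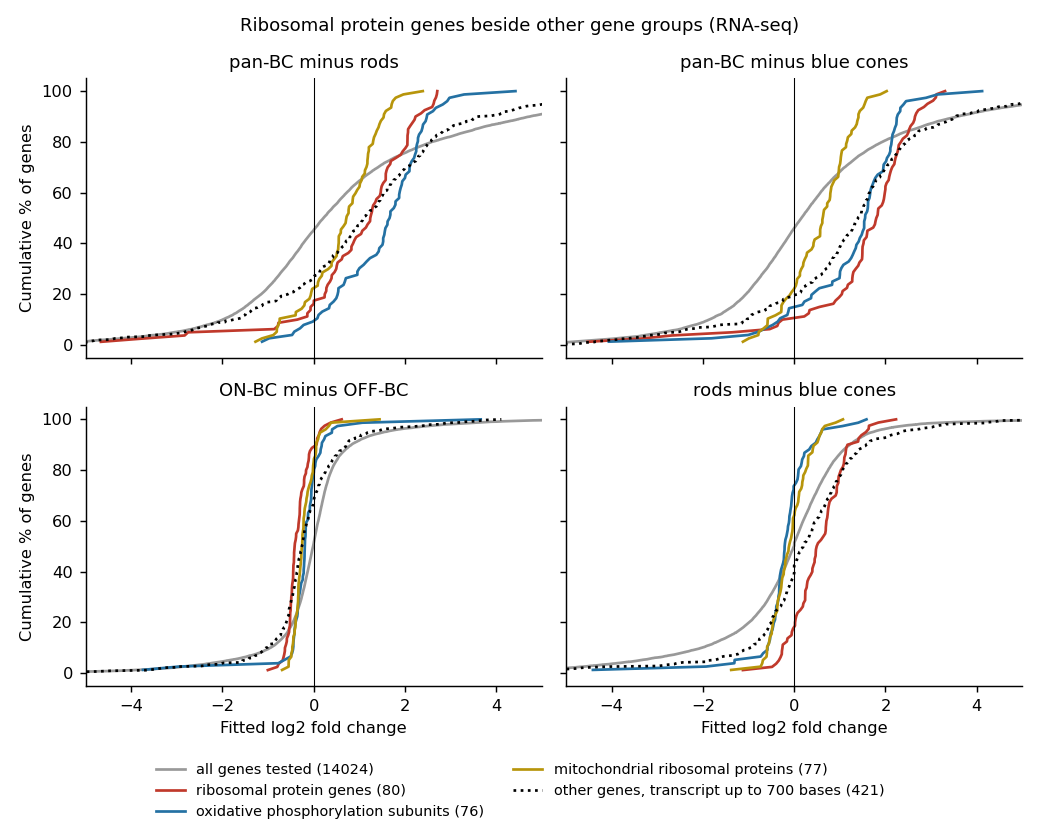
Cumulative share of genes (vertical axis, percent) by fitted log2 fold change (horizontal axis, cut at -5 and 5) in 4 comparisons, for all tested genes, the 80 ribosomal protein genes, 76 oxidative phosphorylation subunits, 77 mitochondrial ribosomal proteins and other genes with transcripts up to 700 bases. At its middle the ribosomal protein curve lies to the right of all genes in both comparisons with pan-BC (medians 1.25 and 1.81) and between rods and blue cones (0.51), and to the left between ON-BC and OFF-BC (-0.42).

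Paralogs within the family did not all follow the genes they resemble. Rps4l, a copy of Rps4x, was at 1930, 1961 and 1829 normalized counts in pan-BC, while rods had 697, 978 and 718 and blue cones 400, 478 and 566. It passed the 2-fold test against blue cones (log2 fold change 2.0) and not against rods (1.27), while Rps4x passed both (2.16 and 2.0). Rpl22l1 gave 1.04 against rods and 2.20 against blue cones, the second of these past 2-fold, and Rpl22, which it resembles, 0.27 and 0.91. Rps27l gave 0.52 and 1.30 with neither past 2-fold, and Rps27, its counterpart, gave 1.95 and 2.65 with both. Rpl7l1, a copy of Rpl7 linked to assembly of the large subunit, had higher levels in photoreceptors. Rods were at 2116, 2592 and 2416 normalized counts, blue cones at 2075, 2305 and 2663 and pan-BC at 1936, 1801 and 1792. These groups did not overlap, and the differences of -0.36 and -0.34 (SE 0.12) were called in the test against no change only (adjusted p = 0.00881 and 0.0128).

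Proteins with known roles outside the ribosome were mixed. Rpl5 and Rpl11, which bind 5S ribosomal RNA and can bind Mdm2, were at 42.6, 45.4 and 46.5 and at 13.8, 12.1 and 13.5 normalized counts in pan-BC and at 85.4, 80.9 and 81.1 and at 21.3, 18.4 and 31.3 in rods. Both lay below the rod libraries in all 3 pan-BC libraries without passing the 2-fold test (log2 fold changes -0.87 and -0.77, and 0.22 and 0.32 against blue cones). Rpl23, listed with them, ran the other way at 1.37 against rods and 1.35 against blue cones. It was called in the test against no change in both and past 2-fold in neither. Rps27a, which is made as a fusion to ubiquitin, gave 1.25 against rods and 1.99 against blue cones, the second past 2-fold. Rps6, the substrate of S6 kinase, gave -0.14 and -0.54 with neither called, and Rps3, which also acts in DNA repair, was past 2-fold in both comparisons.

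Between ON-BC and OFF-BC, which share study, genotype and days, the differences were small. None of the 80 genes passed the 2-fold test by limma, edgeR or DESeq2, 0 at an unadjusted p below 0.05, where 2.95% of all genes tested were higher in ON-BC and 3.6% lower. In limma's test against no change 2 were higher in ON-BC and 22 lower (12.7% and 14.2% of all genes), and 71 of 80 values were below 0, with a median of -0.42 beside -0.02 over all genes. Libraries of the same number from the ON-BC and OFF-BC sorts were of the same postnatal age, and with the replicate number as a block 1 gene was higher and 29 lower. The unblocked count of 24 was 7 without OFF-BC replicate 1 or OFF-BC replicate 3, 8 without ON-BC replicate 2, 11 without ON-BC replicate 1 and 15 without ON-BC replicate 3. Other genes with transcripts up to 700 bases had a median of -0.26. Summed bipolar markers were at 80620 to 94910 in OFF-BC and 153500 to 165900 in ON-BC. That list includes Grm6 and Isl1, which mark ON bipolar cells, so this sum is no measure of purity. OFF-BC went through a second sort, and their summed cone markers (29990 to 104800, against 5120 to 5912 in ON-BC) moved with the difference. So did rod markers, at 8297 to 25170 in OFF-BC and 26930 to 31950 in ON-BC, Müller glia markers, at 9536 to 14210 and 6547 to 7773, and microglial markers, at 138 to 369 and 59.5 to 81.3. Their part in it was not tested.

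Rps4l had the largest difference between the bipolar types. It was at 1258, 1965 and 1474 normalized counts in ON-BC and 3333, 3090 and 2869 in OFF-BC, with no overlap (log2 fold change -1.01, SE 0.16, limma adjusted p = 0.000173 against no change). Rpl32 (-0.80) and Rpl37 (-0.77), both large-subunit proteins, followed, each with all ON-BC libraries below all OFF-BC libraries. Rps2, a small-subunit protein near the messenger RNA entry, ran the other way at 574, 375 and 475 in ON-BC and 277, 276 and 373 in OFF-BC (0.61, limma adjusted p = 0.0412 against no change), a call lost without OFF-BC replicate 1 or 2 or ON-BC replicate 1 or 3. Rpl7l1 was also higher in ON-BC, at 1690, 1808 and 1956 against 1566, 1392 and 1256 (0.38, limma adjusted p = 0.0224 against no change), a call lost with the replicate block (limma adjusted p = 0.0718) and without OFF-BC replicate 2 or 3 or ON-BC replicate 3.

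Rods and blue cones came from the same earlier study and share these libraries with the comparisons above. Here 2 genes were higher in rods past 2-fold and none lower (limma, with 6 and 0 at an unadjusted p below 0.05), against 4.63% and 11.3% of all genes tested, and edgeR called 4 higher and DESeq2 1. In the test against no change 39 were higher in rods and 2 lower (27.2% and 30.4% of all genes), with a median of 0.51 beside -0.00. The median of other genes with transcripts up to 700 bases was 0.20. Rps12, a small-subunit protein, was at 60.2, 48.1 and 60.5 normalized counts in rods and 17.3, 7.59 and 10.4 in blue cones, without overlap (log2 fold change 2.23, SE 0.33, adjusted p = 0.00672). Rpl9, a large-subunit protein, was at 131, 101 and 96.2 in rods and 42.1, 32.6 and 18.5 in blue cones (1.85, SE 0.31, adjusted p = 0.0481). Its call was lost without blue cone replicate 2 or 3 or any 1 of the rod replicates, and the count past 2-fold was then 1. Both genes have over 90% of windows repeated and few reads. The next, Rpl24, gave 1.64 (adjusted p = 0.232). Microglial markers summed to 634 to 1389 in blue cones and 75.7 to 165 in rods, and their part in these differences was not tested.

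Rpl15, a large-subunit protein, was the ribosomal protein gene furthest towards blue cones. It was at 223, 307 and 257 normalized counts in rods and 418, 567 and 774 in blue cones, with all blue cone libraries above all rod libraries (log2 fold change -1.12, SE 0.18, limma adjusted p = 4.94e-05 against no change and 0.921 against 2-fold). Rpl18 was next at -0.48 (adjusted p = 0.0368 against no change), with overlapping libraries and a call lost without blue cone replicate 2 or 3 or rod replicate 1 or 3, and Rps6 followed at -0.40 (adjusted p = 0.278 against no change).

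Ribosomal and translation genes outside the naming rule were compared in the same fit. Gnb2l1, which encodes the ribosome-bound scaffold RACK1, was at 8596, 9075 and 7590 normalized counts in pan-BC libraries, while rods had 2206, 2517 and 2140 and blue cones 1530, 2096 and 2728. Fau, which encodes a ribosomal protein fused to a ubiquitin-like protein, gave a log2 fold change of 1.66 against rods and 2.56 against blue cones. Rpl36al, a copy of Rpl36a, gave 1.61 and 1.52. All 3 genes were past 2-fold in both comparisons. Of 11 elongation factors and partners whose messenger RNAs are known to carry a TOP tract, 2 were higher than in rods and 4 than in blue cones. The shares of all genes tested were 27.8% and 22.7%. Eef1a1, the general factor that brings transfer RNA to the ribosome, was at 13440 ± 790 (SD, n = 3) for pan-BC, 5601 ± 1200 for rods and 7848 ± 1620 for blue cones (1.28 and 0.80, neither past 2-fold). Its neuronal counterpart Eef1a2 was at 1240 ± 59.1 for pan-BC, 4.53 ± 4.17 for rods and 21.8 ± 0.274 for blue cones (8.32 and 5.77). Btf3, a subunit of the nascent chain complex, gave 1.67 and 1.60.

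The factors that act on ribosomes or ribosomal protein genes were counted in the same way, beside 27.8% of all genes higher and 15.8% lower than in rods and 22.7% and 13.7% than in blue cones. Of 28 initiation factors, 4 were higher and 3 lower than in rods, and 3 and 3 than in blue cones. Eif3i was the most increased against rods (2.32) and Eif1a (-2.17) and Eif4g2 (-2.11) the most decreased, while Eif3b gave -3.38 against blue cones. Of 30 genes for RNA polymerase I and ribosomal RNA processing, 1 was higher (Nop10, 1.89) and 3 lower (Heatr1, -1.98, Taf1a, -1.75, and Pes1, -1.65) than in rods, and 2 higher and 5 lower than in blue cones. Of 14 genes of the mTOR pathway and TOP regulation, 1 was higher and 2 lower than in blue cones, and the 3 that passed against rods were all lower: Eif4ebp1 (-3.12), Rps6kb1, an S6 kinase (-1.92), and Larp4 (-1.68). Of 7 tested factors known at ribosomal protein promoters, Mycn (2.31) and E2f1 (2.53) were higher than in rods. The GABP subunits Gabpa (-2.04) and Gabpb1 (-1.98) were lower than in rods. Against blue cones 2 of the 7 were higher and 1 lower. E2f1 was near the floor, at 17.0, 2.02 and 6.12 normalized counts in pan-BC and 0, 1.02 and 0 in rods. So was Eif4ebp1 in pan-BC, at 1.06, 0 and 3.67, and rods had only 12.6, 18.4 and 22.7.

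Accessibility at the promoters of the family was mostly lower in pan-BC than in rods. Of the 84 genes, 81 had at least 1 of the 200-bp ATAC-seq regions centred between 1000 bp before and 100 bp after an annotated start, 100 regions in all. Between pan-BC and rods, 2 of these regions were higher and 22 lower past 2-fold (limma, adjusted over 108448 regions, of which 51.6% were called in either direction). The strongest region of a gene was that with the highest mean normalized count over the 12 libraries. A region high in 1 population can thus be picked through that population. Taking the strongest region of each gene, 1 was higher and 21 lower of 81, where 14.4% and 15.2% of the 10901 strongest promoter regions of tested genes were called. The median over the 81 was -1.0, beside -0.50 over these promoters and 1.16 over all regions. The count of 24 was 10 without pan-BC replicate 2 and 12 without rod replicate 1. Against blue cones, 2 regions were higher and 3 lower (35.9% of all regions called in either direction), or 2 and 8 with TMM scaling and 2 and 14 by edgeR. The median over the strongest regions was -0.48, beside -0.09 over promoters (10.3% of those higher, 3.39% lower).

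No region passed between ON-BC and OFF-BC by limma, edgeR or DESeq2 (0 at an unadjusted p below 0.05 in limma, 7.39% of all regions called, and 0.257% higher and 0.734% lower among the strongest promoter regions of tested genes), with a median of -0.02 over the family's strongest regions. Between rods and blue cones limma called none past 2-fold (3 at an unadjusted p below 0.05, 10% of all regions called, and 0.899% higher and 5.38% lower among the strongest promoter regions), edgeR called 2 and DESeq2 none, and the median was 0.55 beside 0.42 over promoters. The median normalized count of the strongest region was highest in rods at 345, followed by blue cones with 228, green cones with 211, pan-BC and ON-BC with 184 each and OFF-BC with 181. Each deposited peak list held a promoter peak for 80 or 81 of the 84 genes, against 73.9 to 86.5% of tested genes, and 79 genes had one in all 14 libraries. Rpl10l, Rpl39l and Rpl3l had none.

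Among the strongest region of each gene, that of Rpl10a had the largest difference in accessibility to rods and to blue cones. It is 1 of 2 regions of this gene. Over all 100 regions the lowest log2 fold change against blue cones was -2.38. Its strongest region (chr17:28328033-28328232, centred 339 bp upstream of an annotated start) was at 36.0 and 35.4 normalized counts in the pan-BC libraries. Rods had 513 and 524, blue cones 200 and 150 and green cones 257 and 255. ON-BC had 29.9 and 27.8 and OFF-BC 32.3 and 37.0, so that all 6 bipolar libraries lay below all 6 photoreceptor libraries (log2 fold change -3.82 against rods, SE 0.23, limma adjusted p = 1.59e-08, and -2.24 against blue cones, adjusted p = 0.000191). RNA of Rpl10a and accessibility of this region were thus both lower in bipolar cells. At Rps21, RNA was higher in pan-BC and accessibility of its strongest region, 1 of 2, was lower. That region was at 238 and 225 in pan-BC, while rods had 969 and 900 and blue cones 653 and 599 (-2.01, limma adjusted p = 4.11e-06, and -1.43, adjusted p = 0.00956). The regions of Rpl29 (-1.08, adjusted p = 0.536) and Rps3a1 (-0.96, adjusted p = 0.797) did not pass against rods and that of Rpl3 did (-1.51, adjusted p = 0.0274). Rps20, a small-subunit protein picked out after its value was seen, had the highest value in the other direction among the strongest region of each gene, with 461 and 590 in pan-BC and 211 and 161 in rods (1.49, adjusted p = 0.017).

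Of the 80 genes with both measurements, 57 had a positive RNA and a negative accessibility value between pan-BC and rods, 10 were positive in both and 13 negative in both. Against blue cones these numbers were 47, 25 and 8. No gene had a negative RNA and a positive accessibility value in either comparison. Few could, since only 13 and 8 genes had a negative RNA value. The promoter regions of all tested genes also had medians below 0 (-0.5 against rods and -0.09 against blue cones), and the same sign counts over all genes were not made. The 2 comparisons share the pan-BC libraries, and RNA and ATAC-seq were made from different libraries and, for pan-BC by the labels, from mice of different genotype.

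**Figure D5:**
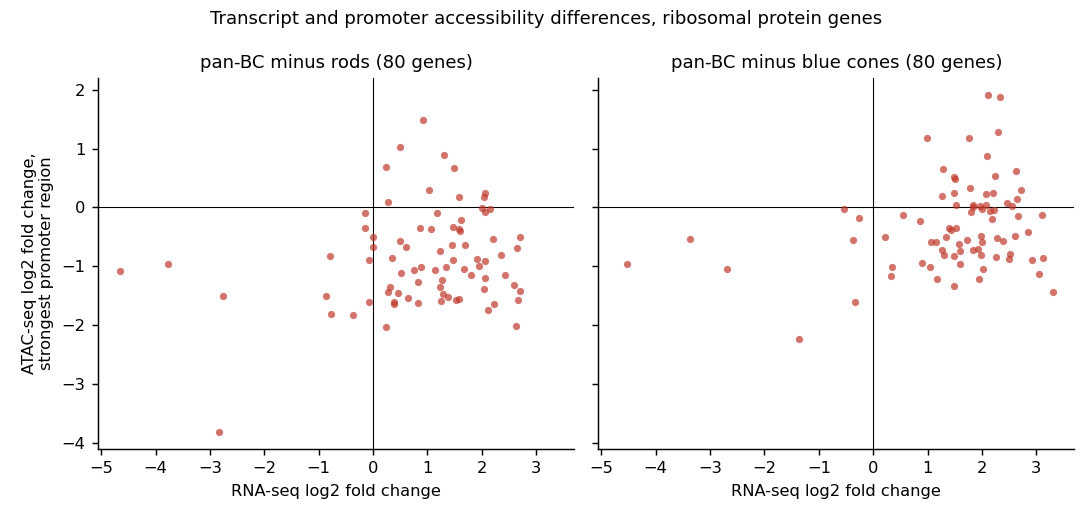
Log2 fold change of RNA (horizontal axis) against that of the strongest ATAC-seq region at the promoter (vertical axis) for 80 ribosomal protein genes, as points, in pan-BC minus rods (left) and pan-BC minus blue cones (right). Most points lie to the right of 0 and below it (57 and 47 genes), and the lowest point of each panel is Rpl10a, at -3.82 and -2.24 on the vertical axis.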

How the data were processed

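RNA of the 15 libraries (SMARTer Ultra Low kit, which does not mark strand, single-end 50-base reads) was aligned by the authors with STAR 2.7.0d to mm10 (GRCm38) and counted per RefSeq gene with HTSeq 1.9. The deposited RNA-seq and ATAC-seq values are a signal, counts divided by the authors with 1 size factor per library. Every value above 0 (230384 in RNA-seq, 1212862 in ATAC-seq) was a multiple of the worth of 1 read in its library (tolerance 0.01 of a read), so whole reads could be recovered. RNA-seq libraries held 12329548 to 26266746 reads, and ATAC-seq libraries 4176776 to 12345845. For ATAC-seq the authors used Bowtie2, Picard 2.19.0 and SAMtools 1.3, kept short fragments, called peaks per library with MACS2 2.1.1 and counted reads over 200-bp regions. In the deposited peak lists, MACS2 as run by the authors gives a score, the enrichment as a fold over local background, and the -log10 of p and q. Of these, the peak positions were used here, together with the -log10 q for a stricter cut.

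Features with few recovered reads were removed with filterByExpr (edgeR), and log2 of the value plus 1 was fitted with limma 3.58.1 (R 4.3.3), with all libraries of an assay in 1 model. Calls past 2-fold used treat against a log2 fold change of 1, calls against no change used eBayes, both with trend, and p-values were adjusted by Benjamini-Hochberg over the 14024 genes or 108448 regions. An adjusted p in the text is that of the 2-fold test unless it is said to be against no change. The design assumed normalized values, which the files hold. edgeR 4.0.16 and DESeq2 1.42.0 on the recovered reads, other scalings, filters and pseudocounts, a replicate block, fits on the 2 populations alone and fits without each replicate were alternatives. The scripts were tested on simulated data.

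Repeated windows were 50-base stretches of the longest curated RefSeq transcript that occur again on either strand of the 21 chromosomes. Promoter regions and peaks were those within 1000 bp before and 100 bp after a RefSeq start. The members and lists were chosen with earlier results of these data known. Genes were named by rule: in each RNA-seq comparison up to 6 past 2-fold in each direction and the 3 highest and 3 lowest values, the 5 highest and 5 lowest levels per kb, the paralogs, the stalk, 5S, ubiquitin-fused and other listed proteins, and from other pathways at most 3 per comparison. A few genes that the rule picks are not reported here. Genes with the start tract and the promoter regions named singly were added after their values were seen. By the labels, ON-BC and OFF-BC libraries of the same number were of the same postnatal age, so that their fit with the replicate number as a block is given beside results it changes. Nothing said that replicates share an animal, and same-numbered libraries of other populations were not paired.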

Additional observations from a re-analysis of the deposited data

How the results depend on the processing

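Of the values that answer a comparison, 220 stayed within 1.5 times the reported count or 1 SD of the reported share, or kept their side and sign, and 31 moved. Between rods and blue cones, the 2 genes past 2-fold became 1 with TMM scaling, library totals, no filter, a pseudocount of 5, DESeq2 or only the 2 populations, 4 with edgeR, and 1 to 2 without each replicate. The gene lost was Rpl9 in each of the first 6. The pan-BC against rod median rose from 1.25 to 1.59 with library totals, which moved the median of all genes by 0.34 (0.28 against blue cones). Without the 10 most abundant genes the shares were 0.925% (pan-BC), 0.815% (ON-BC), 0.3% (rods) and 0.25% (blue cones). The promoter regions past 2-fold went from 24 to 42 with edgeR against rods and to 10 to 24 without each replicate. Against blue cones they went from 5 to 10 with TMM scaling, to 16 with edgeR and to 3 with promoters cut to 300 bp upstream, and between rods and blue cones from 0 to 2 with edgeR. The median of all regions between pan-BC and rods shifted by -0.19 with TMM scaling and -0.12 with edgeR. Calls against no change between ON-BC and OFF-BC were 7 to 32 without each replicate (24 in full). Among named genes, 407 values kept their direction and side of the threshold and 28 no longer passed. The cause of these changes was not tested.

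With the replicate block, counts past 2-fold were 38 against rods, 48 against blue cones, 0 between ON-BC and OFF-BC and 0 between rods and blue cones, and calls against no change between rods and blue cones went from 41 to 23. Accessibility gave 25, 5, 0 and 0. The calls of Rpl7l1, Rpl18, Rpl9 and Rps12 were not made under it. Replicates of the same number did not deviate together throughout: between ON-BC and OFF-BC, which share ages by number, the correlations were -0.076, 0.222 and -0.065, all others lay between -0.081 and 0.081, and not every library correlated best with its own number.

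Depth limits the genes with few reads, such as Rpl29 in pan-BC with 4 to 6 reads a library, and a difference that missed a threshold with 3 libraries a group is not shown to be absent.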
